A study of Arabidopsis thaliana with 24 samples.

Results

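Transcripts of 7 Arabidopsis thaliana genes were at their highest in the shoot apex and in the true leaves at times exactly 12 h apart. They are SIP2 (AT3G57520), PRP2 (AT2G21140), AT2G25450, SERAT2;1 (AT1G55920), GASA1 (AT1G75750), AT2G40205 and GRP5 (AT3G20470). They were chosen by their measured FPKM, reads per length of transcript and per depth of the library, among the 33322 genes of the deposited table. The 2 replicates of each of 6 times were averaged in each tissue. A gene was kept if its mean over the 12 libraries was at least 10 FPKM in both tissues, if its highest time mean was at least 1.6 times its lowest in both tissues, and if the highest times lay 12 h apart. Of 6268 genes that passed the level limit, 557 also passed the range limit, and 7 of these met the rule. The rule used the time courses themselves, so these are given as a description with no test.

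The plants were wild type, accession Col-0, kept for 14 days in 12 h of light at about 100 μmol m-2 s-1 and 12 h of darkness, and then in constant light at about 60 μmol m-2 s-1. Shoot apex and true leaves were cryodissected from 6 to 10 frozen seedlings per sample at 90, 94, 98, 102, 106 and 110 h of constant light (ZT90 to ZT110), which gave 12 shoot apex and 12 leaf libraries of polyA RNA. The labels give no treatment, although every column name carries the word mock. Both replicates at a time are said to come from separate experiments, without saying which number is which.

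A plant cell keeps time with interlocked transcription loops, in which morning proteins such as CCA1 and LHY and evening proteins such as TOC1 repress one another. In constant light these loops go on running, and each tissue carries its own. The 7 genes are known from different pathways. SIP2 encodes an enzyme of the raffinose synthase family, described as an alpha-galactosidase that acts on raffinose. SERAT2;1 is a serine acetyltransferase, which makes the O-acetylserine from which plants build cysteine. AT2G25450 is annotated as an oxygenase that depends on oxoglutarate and iron. GASA1 belongs to a family of small cysteine-rich proteins that respond to gibberellin. PRP2 encodes a proline-rich protein of the cell wall class and GRP5 a glycine-rich protein. AT2G40205 encodes the very small ribosomal protein L41 of the large subunit.

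Promoter stretches are shown for 3 genes. SIP2 and PRP2 shared both highest times of their means, and each held a G-box (CACGTG), a site of bZIP and bHLH factors. In SIP2 these were the highest times of shoot apex replicate 1 and leaf replicate 2, and neither replicate number had both. AT2G40205 and SERAT2;1 also shared both highest times, but no motif of the 12 searched was in both. AT2G25450 was among the genes that met the whole rule in each replicate alone on the deposited scale. Like the windows of GASA1, AT2G40205, SERAT2;1 and GRP5, its window held the letters of neither the evening element, the CCA1 site nor the G-box. The sequences are the 250 bases before the annotated start, written on the strand of the gene, from RefSeq's TAIR10.1, the build of all positions given here. Capitals mark the G-box in SIP2 and PRP2 and the sugar box (TATCCA) in AT2G25450.
SIP2, chr3:21293172-21293421, minus strand: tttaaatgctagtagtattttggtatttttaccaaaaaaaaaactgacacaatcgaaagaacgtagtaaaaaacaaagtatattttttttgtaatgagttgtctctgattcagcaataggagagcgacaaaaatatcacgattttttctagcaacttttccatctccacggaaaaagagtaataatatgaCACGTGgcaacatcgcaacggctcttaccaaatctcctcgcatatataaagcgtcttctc
PRP2, chr2:9062094-9062343, minus strand: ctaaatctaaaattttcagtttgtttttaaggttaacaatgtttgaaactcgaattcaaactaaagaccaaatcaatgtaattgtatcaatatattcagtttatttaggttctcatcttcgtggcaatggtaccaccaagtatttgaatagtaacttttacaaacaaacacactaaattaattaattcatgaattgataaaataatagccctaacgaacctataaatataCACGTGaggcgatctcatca
AT2G25450, chr2:10831656-10831905, minus strand: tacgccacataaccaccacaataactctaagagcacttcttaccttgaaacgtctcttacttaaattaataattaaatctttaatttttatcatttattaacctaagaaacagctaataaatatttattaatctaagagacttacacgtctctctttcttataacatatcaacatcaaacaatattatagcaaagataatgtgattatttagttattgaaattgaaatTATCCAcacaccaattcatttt

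In all, 12 motifs were searched on both strands in the window from 250 bases before to 50 after the start. The G-box began 60 bases before the start in SIP2 and 20 in PRP2. It was in the windows of 2 of 7 genes, of 14.3% of 552 genes past both limits and of 6.89% of all 32833 windows. The evening element AAAATATCT, a site of CCA1 and its relatives, was in 0 of 7, against 11.6% of the genes past both limits and 2.61% of all. The related site AAAAATCT was in 0 of 7, in 10.5% of the genes past both limits and in 7.33% of all. The E-box variant CACATG, bound by PIF factors, was in SERAT2;1 and GRP5. It was in 16.1% of the genes past both limits and in 12.7% of all windows. AT2G40205 held the telo-box AAACCCT and 2 copies of the site II element TGGGCC, both known from ribosomal protein promoters. These were in 5.07% and 11.6% of the genes past both limits and in 10% and 14% of all windows. SERAT2;1 also held the I-box GATAAG (19.4% of the genes past both limits and 15% of all). GASA1 held the DRE core CCGAC 16 bases into the gene (17.2% and 15.6%), and AT2G25450 the sugar box (23.7% and 15.8%). The W-box TTGACC (11.2% and 13.7%), the CAMTA site CGCGT (8.51% and 8.77%) and the heat shock element GAANNTTC (11.8% and 11.3%) were in 0 of 7. With 7 genes the motif counts are a description, and no difference from the shares was tested. The 250 bases before SERAT2;1 overlap AT1G55917, annotated on the opposite strand.

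Highest times in the 2 tissues were close together in most genes. Of the 557 genes past both limits, 314 (56.4%) had the same highest time in both tissues and 527 (94.6%) had highest times at most 4 h apart. The shoot apex was 4 h ahead in 161 genes and 4 h behind in 52, 8 h ahead in 16 and 8 h behind in 7. The 7 genes at 12 h were 1.26% of the 557. Among all 6268 genes past the level limit, whatever their range, 440 (7.02%) had highest times 12 h apart.

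**Figure D1:**
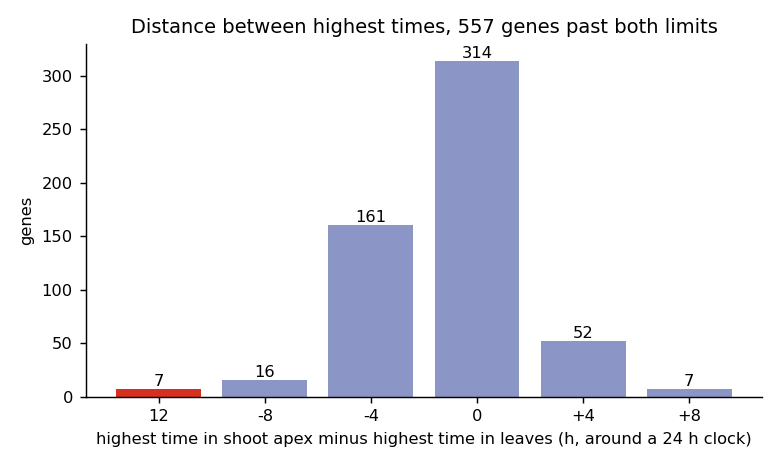
The x axis gives the highest time in the shoot apex minus that in leaves, in hours around a 24 h clock, and the y axis the number of genes past both limits. The bar at 12 h, in red, holds 7 genes, against 314 at 0 h.

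Over the 6 time means, the shoot apex course and the leaf course had a median Pearson r of -0.42 in the 7 genes, against 0.93 in the 314 genes with highest times at 0 h, 0.84 in 213 genes at 4 h and 0.49 in 23 genes at 8 h. The 7 genes ranged from -0.94 for SIP2 to 0.69 for GASA1. The r was below 0 in 4 of the 7 and in 18 of all 557. The 6 points of each course are time means of the same libraries for all genes. The distances between highest times were read from these same means, so a lower r at larger distances is in part built in. The values of r are a description and no separate support.

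**Figure D2:**
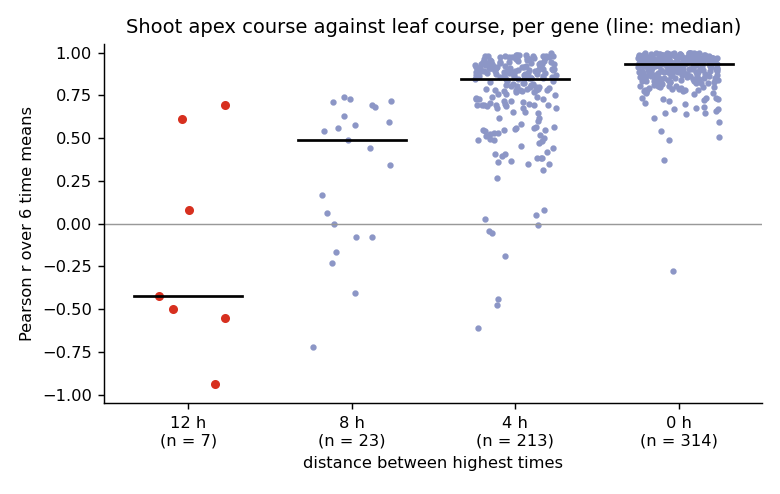
Each point is a gene, the y axis is the Pearson r between its shoot apex and leaf courses over 6 time means, and the x axis is the distance between highest times. The 7 genes at 12 h, in red, spread from -0.94 to 0.69, and the black lines are medians. Distance and r come from the same means.

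The courses of SIP2 were close to mirror images. In the shoot apex, replicates 1 and 2 held, in FPKM, 25.98 and 21.6 at ZT90, 21.6 and 27.6 at ZT94, 35.5 and 45.9 at ZT98, 37.3 and 44.3 at ZT102, 27.8 and 24.4 at ZT106 and 16.6 and 21.3 at ZT110. In leaves they held, in FPKM, 28.0 and 41.03 at ZT90, 24.1 and 28.3 at ZT94, 15.1 and 18.1 at ZT98, 13.1 and 11.1 at ZT102, 33 and 18.5 at ZT106 and 35.2 and 28.7 at ZT110. At ZT98 and ZT102 all 4 shoot apex libraries (35.5 to 45.9 FPKM) stood above the other 8, while all 4 leaf libraries (11.1 to 18.1 FPKM) stood below the other 8, and the tissues did not overlap at these times. The exact highest time was less settled than the course. The shoot apex means at ZT102 and ZT98 were 40.8 and 40.7 FPKM, closer than the replicates at either time. SIP2 had a highest over lowest time mean of 2.15 for the shoot apex and 2.85 for the leaves. It was the one gene left when at least 2-fold was asked in both tissues. The gene lies at chr3:21288742-21293171 on the minus strand and has 14 exons.

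AT2G25450, the oxygenase, was the most abundant of the 7 in the shoot apex. Its shoot apex replicates 1 and 2 held, in FPKM, 165 and 168 at ZT90, 177 and 190.3 at ZT94, 245 and 221 at ZT98, 232 and 118 at ZT102, 118 and 162 at ZT106 and 149.6 and 187 at ZT110. In leaves they held, in FPKM, 147 and 136 at ZT90, 141 and 113.4 at ZT94, 129 and 117 at ZT98, 162 and 106 at ZT102, 155 and 174 at ZT106 and 210.4 and 192 at ZT110. Both leaf libraries at ZT110 stood above the other 10 leaf libraries. In the shoot apex ZT98 was highest in each replicate, but replicate 1 at ZT102 lay between the 2 libraries of ZT98, and its partner at ZT102 held 118 FPKM. The highest over lowest time mean was 1.66 for the shoot apex and 1.63 for the leaves. This was the one gene of the 7 whose highest time mean was at least 1.1 times the next in both tissues, a margin found in 139 of 314 genes (44.3%) with highest times at 0 h. The gene lies at chr2:10829854-10831655 on the minus strand.

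SERAT2;1, the serine acetyltransferase gene, had the smallest standard error of the 7 in the fit over both tissues (0.050 on the log2 scale). Its shoot apex replicates 1 and 2 held, in FPKM, 19.6 and 20.2 at ZT90, 22.9 and 18.7 at ZT94, 19.5 and 17.5 at ZT98, 13.5 and 14.2 at ZT102, 16.2 and 13.5 at ZT106 and 23.2 and 23.5 at ZT110. In leaves they held, in FPKM, 21.7 and 19.2 at ZT90, 33.8 and 35.5 at ZT94, 34.8 and 38.1 at ZT98, 26.3 and 26.3 at ZT102, 15.9 and 14.0 at ZT106 and 20.3 and 16.0 at ZT110. Both shoot apex libraries at ZT110 stood above the other 10, and in leaves the 4 libraries of ZT94 and ZT98 (33.8 to 38.1 FPKM) stood above the other 8. The courses were not mirror images, with r = 0.08. Both tissues were low at ZT106, and the shoot apex was at its lowest at ZT102, when leaves still held 26.3 FPKM in each replicate. The highest over lowest time mean was 1.69 for the shoot apex and 2.44 for the leaves. The gene lies at chr1:20912116-20913565 on the plus strand, its first bases overlap AT1G55917 on the other strand, and whether reads were counted by strand is not given in the sources used here.

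PRP2, the proline-rich protein gene, shared its highest times with SIP2, as AT2G40205 did with SERAT2;1. Its shoot apex replicates 1 and 2 held, in FPKM, 23.9 and 30.1 at ZT90, 22.9 and 17.9 at ZT94, 23.4 and 25.7 at ZT98, 38.5 and 43.6 at ZT102, 22.6 and 43.1 at ZT106 and 27.9 and 24.8 at ZT110. In leaves they held, in FPKM, 25.7 and 35.3 at ZT90, 20.07 and 24.2 at ZT94, 22.5 and 33.3 at ZT98, 15.05 and 25.2 at ZT102, 14.2 and 23.6 at ZT106 and 16.0 and 24.9 at ZT110. ZT102 was highest in the shoot apex and ZT90 in leaves in each replicate, but replicate 2 of the shoot apex held nearly as much at ZT106. The leaf range was shallow, 1.62 for the means and 1.498 in replicate 2 alone, under the limit. The gene lies at chr2:9060561-9062093 on the minus strand.

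In the other 3 genes, as in SIP2, the replicates differed on the highest time in both tissues. GASA1 held 29.5 and 10.0 FPKM in shoot apex replicates 1 and 2 at ZT106 and 10.7 and 15.1 FPKM at ZT94. In leaves it held 323 and 95.6 FPKM at ZT106 and 227 and 197 FPKM at ZT94. In replicate 1 both tissues were highest at ZT106, and in replicate 2 both were highest at ZT94. Neither replicate number alone thus placed the tissues apart. The numbers were not taken to pair the tissues, and with the numbers crossed the highest times of GASA1 were 12 h apart either way. The leaf means at ZT94 and ZT106 were 212 and 209 FPKM. GASA1 lies at chr1:28441501-28442435 on the minus strand.

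AT2G40205, the L41 gene, held 168 and 74.6 FPKM in shoot apex replicates 1 and 2 at ZT110, its highest time, and 92.0 and 136 FPKM at ZT94. Over its 12 shoot apex libraries it spread from 22.0 to 168 FPKM, and the lowest and one of the higher values, 22.0 and 111 FPKM, were the replicates of ZT90. In leaves the highest time, ZT98, rested on replicate 1 with 33.9 FPKM, while replicate 2 held 13.9 FPKM and the other 10 leaf libraries 8.34 to 16.4 FPKM. Its annotated exons span 349 bases at chr2:16792175-16792622 on the minus strand, and an estimated 35.8 to 170.5 reads stood behind its value in a leaf library. GRP5, the glycine-rich protein gene, held 38.4 and 48.9 FPKM in shoot apex replicates 1 and 2 at ZT94 and 60.8 and 25.6 FPKM at ZT110. The means of these times, ZT94 and ZT110, were 43.7 and 43.2 FPKM. In leaves GRP5 held 20.2 and 29.5 FPKM at ZT106 and 29.2 and 19.97 FPKM at ZT110, with means of 24.9 and 24.6 FPKM. GRP5 lies at chr3:7140294-7141353 on the minus strand.

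**Figure D3:**
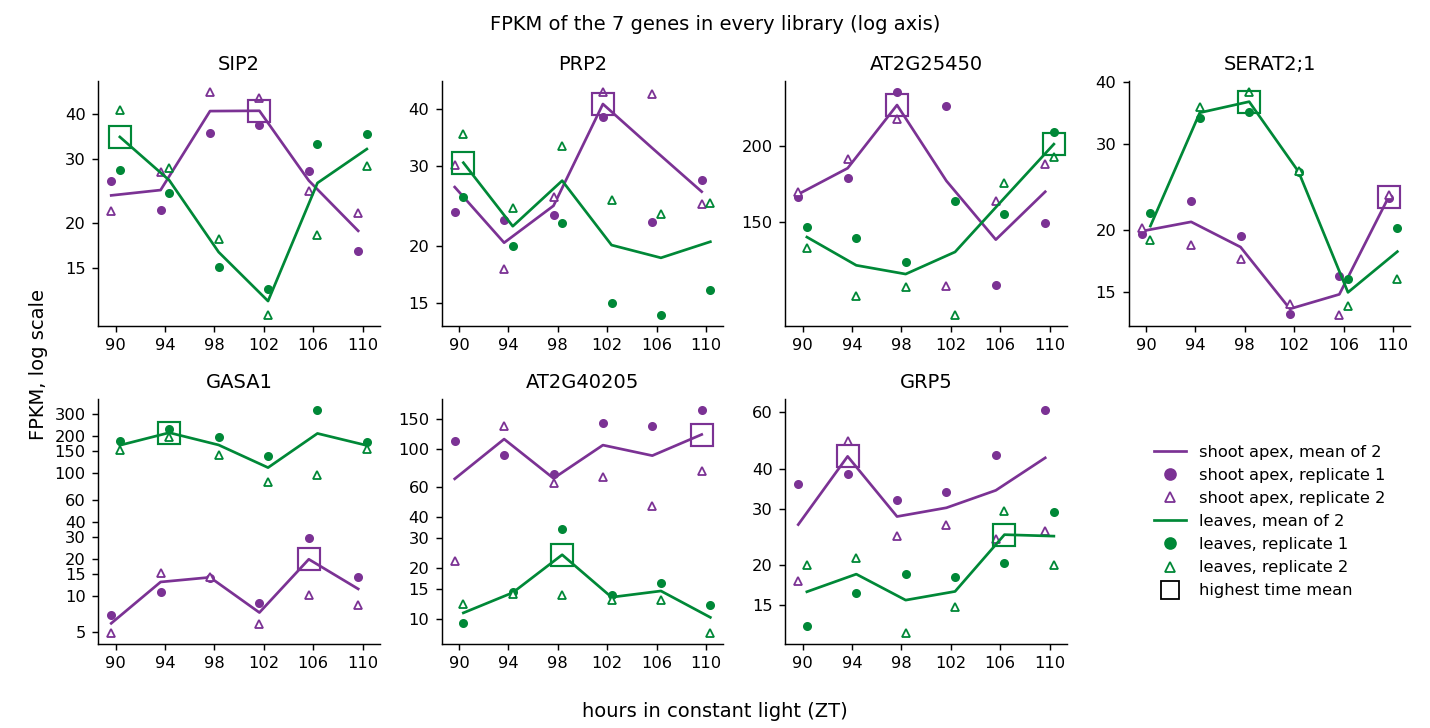
FPKM on a log axis against hours in constant light, with filled circles for replicate 1, open triangles for replicate 2, lines for the mean of both and squares for the highest time mean, shoot apex in purple and leaves in green. SIP2 shows opposite courses, with 40.8 FPKM in the shoot apex and 12.1 FPKM in leaves at ZT102, while the replicates of GASA1, AT2G40205 and GRP5 are highest at different times.

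Taken by replicate number, the rule found few of the same genes. The numbers were not taken to pair the tissues, so these counts depend on how the libraries were numbered. The rule found 11 of 632 genes past the limits in replicate 1 alone and 19 of 788 in replicate 2 alone. It found 2 genes in both, SERAT2;1 and AT2G25450. On rescaled libraries 0 genes met it in both, and AT2G25450 was not found from the means either. Of the 7 genes, 4 met it in replicate 1 alone, 3 in replicate 2 alone and 2, SIP2 and GASA1, in neither. Of the 11 genes found in replicate 1, 4 (36.4%) had highest times 12 h apart in replicate 2, whatever their level and range there. Among all genes past the limits in replicate 2 the share was 2.41%. Of the 19 found in replicate 2, 4 (21.1%) did so in replicate 1, where the share of all genes past the limits was 1.74%. The shares of all genes asked for level and range as well, so they are not like for like with 36.4% and 21.1%. From the means, 440 of 6268 genes past the level limit (7.02%) were 12 h apart, whatever their range. SERAT2;1, AT2G25450 and PRP2 had the same highest time in both replicates in both tissues. This is 3 of 7, against 47.1% of the 314 genes with highest times at 0 h and 39.9% of all 557. SIP2 was highest at ZT102 in the shoot apex and ZT110 in leaves in replicate 1, and at ZT98 in the shoot apex and ZT90 in leaves in replicate 2, which is 8 h apart in each. AT2G40205 was 12 h apart in replicate 1 and 0 h in replicate 2, and GRP5 the other way round. With the numbers crossed between tissues, SIP2 and GASA1 were 12 h apart both ways, and AT2G40205 and GRP5 neither way.

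**Figure D4:**
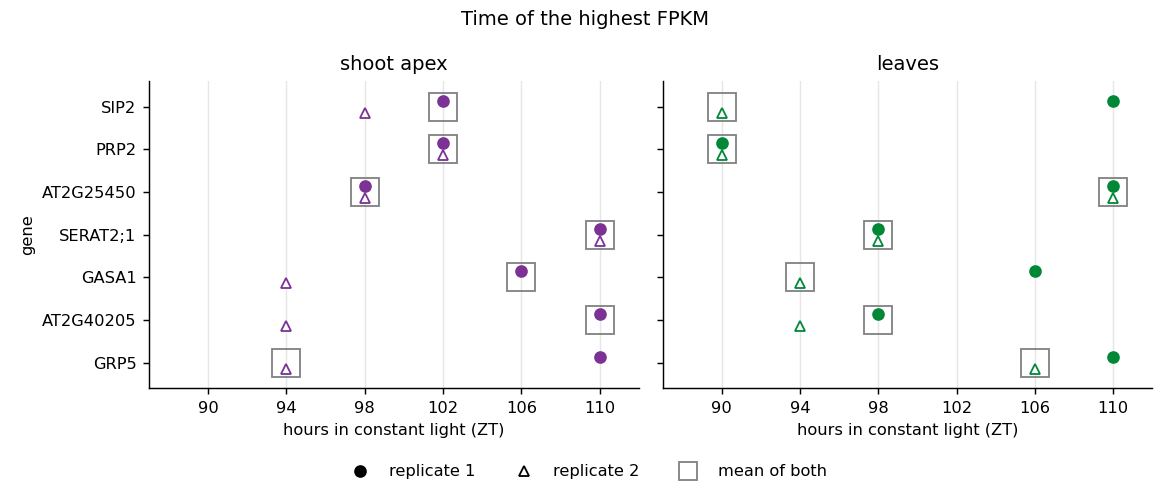
Time of the highest FPKM (x axis, hours in constant light) of each gene in the shoot apex (left) and leaves (right), with filled circles for replicate 1, open triangles for replicate 2 and squares for the mean of both. In PRP2, AT2G25450 and SERAT2;1 all symbols coincide within each tissue, and in GASA1 the replicates are 12 h apart in each tissue.

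A 24 h wave fitted to log2(FPKM + 1) uses all 6 times rather than the highest one. The peak of the wave in the shoot apex and that in leaves lay 11.2 ± 0.95 h apart in SIP2, 11.03 ± 1.9 h in AT2G25450, 11.1 ± 2.4 h in PRP2 and 11.4 ± 5.4 h in GASA1 (SE of the fit, 24 libraries). They lay 6.03 ± 0.99 h apart in SERAT2;1, 5.16 ± 7.5 h in AT2G40205 and 4.22 ± 9.4 h in GRP5. Of the 557 genes past both limits, 4 had wave peaks at least 10 h apart, and all 4 were among the 7. The waves were fitted to the values by which the rule chose the genes, so this overlap is a description and no separate support. The amplitude, from the mean of the wave to its peak, was 0.52 ± 0.10 for the shoot apex and 0.68 ± 0.10 for the leaves in SIP2. It was 0.30 ± 0.070 for the shoot apex and 0.62 ± 0.070 for the leaves in SERAT2;1. In GASA1, AT2G40205 and GRP5 the shoot apex amplitude was smaller than its SE. Their shoot apex peak times, and so their distances, are not determined by the fit, and GASA1 is among the 4. The fit took all libraries as independent, so the SEs of the waves do not measure the spread between experiments. The window covers 20 h, less than a full cycle, so that any other smooth rise and fall would be described by such a wave too.

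The level of one tissue against the other was not used by the rule beyond the floor of 10 FPKM. GASA1 averaged 11.9 ± 6.55 FPKM in the shoot apex and 173 ± 63.0 in leaves (SD, n = 12 each, all times), a log2 difference of -3.81 ± 0.20 (SE), and it was lower in the shoot apex at 6 of 6 times. It was the one gene of the 7 whose tissues did not overlap in any library, a pattern seen in 58.3% of all genes. AT2G40205 averaged 94.4 ± 44.4 FPKM in the shoot apex and 14.6 ± 6.45 in leaves, a log2 difference of 2.51 ± 0.26. GRP5 averaged 34.4 ± 12.2 FPKM in the shoot apex and 19.4 ± 5.46 in leaves, a difference of 0.76 ± 0.17, and both genes were higher in the shoot apex at 6 of 6 times. The limma adjusted p was 2.14e-11 for GASA1, 1.41e-07 for AT2G40205 and 0.000464 for GRP5. The fit took all libraries of a tissue as independent. Yet replicate differences correlated between times, at 0.16 to 0.44 in the shoot apex and 0.55 to 0.76 in leaves. The SEs and p-values of the tissue difference, here and below, thus do not measure the spread between experiments.

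On the deposited scale the other 4 genes differed less in mean level. SERAT2;1 averaged 18.6 ± 3.66 FPKM in the shoot apex and 25.2 ± 8.59 in leaves, with a log2 difference of -0.37 ± 0.05 (limma adjusted p = 3.42e-06). SIP2 averaged 29.2 ± 9.47 FPKM in the shoot apex and 24.5 ± 9.44 in leaves (0.28 ± 0.10, adjusted p = 0.0155). AT2G25450 averaged 178 ± 40.4 FPKM in the shoot apex and 149 ± 31.9 in leaves (0.25 ± 0.10, adjusted p = 0.0318), and this call was lost without any of 11 single libraries. PRP2, at 28.7 ± 8.49 FPKM in the shoot apex and 23.3 ± 6.56 FPKM in leaves, did not pass (0.29 ± 0.13, adjusted p = 0.0505), but passed without any of 9 single libraries. In all, 4 of 7 were higher in the shoot apex, against 68.6% of all genes, and 2 of 7 lower, against 21.4%. The median difference of all tested genes was 0.58 for the deposited FPKM and 0.0079 for rescaled FPKM, in which each library was divided by its median ratio to a geometric mean library. On the rescaled values SIP2 (-0.38 ± 0.10), AT2G25450 (-0.44 ± 0.10) and PRP2 (-0.38 ± 0.15) were lower in the shoot apex and past the threshold, and GRP5 (0.10 ± 0.16, adjusted p = 0.575) no longer passed. SERAT2;1 (-1.03 ± 0.05) and GASA1 (-4.46 ± 0.18) then lay further below leaves, and AT2G40205 (1.85 ± 0.25) less far above them. On this scale 1 of the 7 was higher in the shoot apex (42.5% of all genes) and 5 were lower (42.1%).

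**Figure D5:**
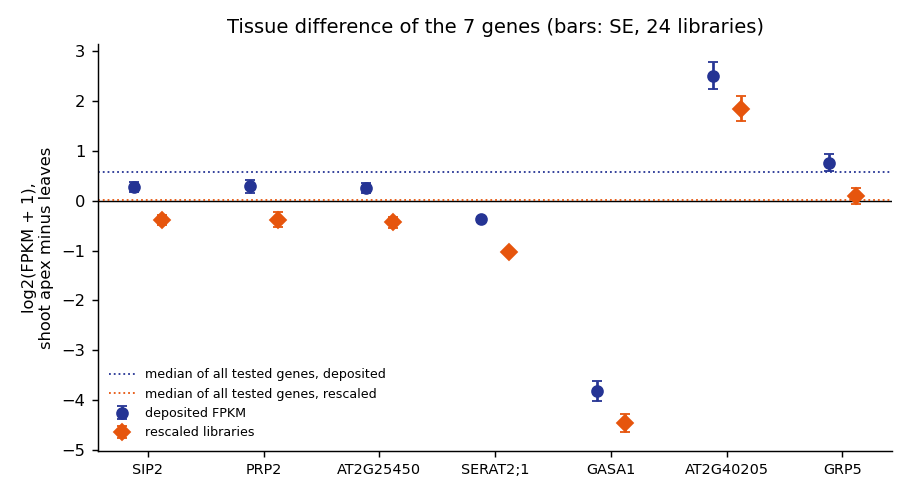
Log2(FPKM + 1) in the shoot apex minus leaves for each gene, with circles for the deposited values and diamonds for rescaled libraries, bars for the SE over 24 libraries and dotted lines for the median of all tested genes. GASA1 (-3.81) and AT2G40205 (2.51) stand far from the rest, and SIP2, PRP2 and AT2G25450 change sign with the scale.

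The tissues were checked against marker genes. Over 9 shoot apex markers the summed FPKM was 174 to 222 in the 12 apex samples, against 0.387 to 1.74 in the leaf samples, with CLV3 and WUS at 0 in all leaf libraries. Over 5 mesophyll markers it was 425 to 836 in apex samples, against 6277 to 11370 in leaf samples. Mesophyll marker transcripts were thus present in shoot apex samples, and their part in the level of GASA1 and the other genes was not tested. In bulk tissue fewer cells of a type and less RNA per cell cannot be told apart. Over 3 root markers the sum was 152 to 260 in apex samples and 32.1 to 56.5 in leaf samples, and over 4 flower markers it was at most 0.154 in apex samples and 0.362 in leaf samples.

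The rule averaged the replicates and so did not use their mean difference over the 6 times, but a highest mean of 2 libraries can be set by 1 of them, and this difference is not wholly independent of the choice of genes. Its median size was 0.17 in the shoot apex and 0.19 in leaves (log2) for the 7 genes, against 0.11 and 0.12 for all tested genes in the shoot apex and leaves. In leaves PRP2 averaged 18.9 ± 4.61 FPKM in replicate 1 and 27.8 ± 5.14 in replicate 2 (SD, n = 6 times each), and it was lower in replicate 1 at 6 of 6 times (log2 difference -0.54 ± 0.12, limma adjusted p = 0.00266). It was the one gene of the 7 that passed in leaves, against 30.7% of all genes in either direction and 10.6% lower in replicate 1. GASA1 averaged 207 ± 64.0 FPKM in leaf replicate 1 and 138 ± 41.9 in replicate 2, and it was higher in replicate 1 at 6 of 6 times, but did not pass (0.59 ± 0.22, limma adjusted p = 0.0524). In the shoot apex AT2G40205 averaged 120.2 ± 35.5 FPKM in replicate 1 and 68.5 ± 38.3 in replicate 2 (0.94 ± 0.28, limma adjusted p = 0.029). GRP5 averaged 40.8 ± 10.7 FPKM in replicate 1 and 27.9 ± 10.7 in replicate 2 (0.57 ± 0.19, limma adjusted p = 0.0497). Both were higher in replicate 1 at 5 of 6 times, and 2 of 7 passing compares with 20.7% of all genes, 15.6% higher in replicate 1 and 5.02% higher in replicate 2. Without single libraries the adjusted p reached 0.1 for AT2G40205 and 0.16 for GRP5, and neither call then held. The difference between tissues in the replicate difference passed for 0 of the 7 and for 22.5% of all genes. It presumes that a replicate number is the same experiment in both tissues, which the labels do not say, so nothing is read from it.

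Relatives of these genes were taken by annotated family name once the 7 were known. Outside the L41 family 4 relatives passed both limits, 2 with highest times at 0 h and 2 at 4 h. DIN10, another raffinose synthase family gene and a marker of sugar starvation, was highest at ZT98 in the shoot apex and ZT102 in leaves, with r = 0.91. SERAT2;2 was highest at ZT90 in both tissues with r = 0.97, and GASA4 at ZT106 in both with r = 0.97. GASA6 was highest at ZT106 in the shoot apex and ZT102 in leaves (r = 0.73). PRP4 was highest at ZT106 in the shoot apex and ZT90 in leaves, 8 h apart (r = -0.58), with a leaf range of 1.54 under the limit. SERAT1;1 was nearly flat, with ranges of 1.104 for the shoot apex and 1.19 for leaves. Of 8 galactinol synthase genes, which supply the galactosyl donor for raffinose, 0 reached 10 FPKM in both tissues.

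All 5 genes of the L41 family were above 10 FPKM in both tissues. AT3G56020 also had its highest times 12 h apart, ZT110 in the shoot apex and ZT98 in leaves as in AT2G40205, but its ranges of 1.51 in the shoot apex and 1.59 in leaves were just under the limit. The other 3 were closer. AT3G08520, past both limits, was highest at ZT94 in both tissues, and AT3G11120, also past both limits, and AT1G56045 were highest at ZT94 in the shoot apex and ZT98 in leaves. The r between tissues was -0.39 in AT3G56020, -0.28 in AT3G08520, -0.08 in AT1G56045 and 0.03 in AT3G11120. How reads shared between such short, similar genes were counted is not given in the sources used here, so the split of values among them is uncertain.

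Of 288 genes on 21 lists of clock, metabolism, stress, growth and photosynthesis genes, 75 passed both limits and 0 were among the 7. Their highest times were 0 h apart in 47, 4 h in 25 and 8 h in 3, which were COR15A, BAM3 and NIA1. The lists hold selected genes of each pathway, so the absence of the 7 from them does not place the 7 outside these pathways. Among clock genes, 7 of 13 morning genes passed the limits, 4 at 0 h and 3 at 4 h, and 5 of 13 evening genes, 4 at 0 h and 1 at 4 h. LHY was highest at ZT94 and TOC1 at ZT106 in both tissues, with r between the tissues of 0.94 for LHY and 0.96 for TOC1. CCA1 and RVE4 were highest at ZT94 in the shoot apex and ZT98 in leaves, and JMJD5 at ZT106 in the shoot apex and ZT110 in leaves. Of 16 photosynthesis genes past the limits, 4 were at 0 h and 12 at 4 h, and of 11 starch genes 8 were at 0 h, 2 at 4 h and 1 at 8 h.

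The limits fell between close values. Just inside the level limit was GASA1 with 11.9 FPKM in the shoot apex, and just outside was AT5G01015 with 9.47. Just inside the range limit was GRP5 with ranges of 1.63 for the shoot apex and 1.602 in leaves, and just outside was WR3 with 1.596 in the shoot apex. With limits of 5 FPKM the rule found 14 genes and of 20 FPKM 3, and with a range of at least 1.4-fold it found 19. On rescaled libraries it found 6, of which PRP2, AT2G40205 and SERAT2;1 were among the 7. With each library left out in turn, SERAT2;1 met the rule in 24 of 24 cases, SIP2, GASA1, AT2G25450 and PRP2 in 20, AT2G40205 in 19 and GRP5 in 17.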

How the data were processed

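RNA from 24 samples was sequenced as single-end reads of 50 bases, per the labels' protocols. The authors deposited FPKM values for 33323 genes in 1 table, and 1 gene with a text cell was left out. Per the submitters' processing notes the tools were HOMER and STAR 2.5.0c and the build TAIR10, with no roles or settings, and the counting rules are not given in the sources used here. Depth is not given. From the steps between low FPKM values each apex library was estimated to hold about 7.63 to 14.8 M reads and each leaf library 11 to 14.4 M, although only 43.8% to 48.3% of low values came out whole within 0.15 of a read.

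The 7 members and all lists were chosen with earlier results of these data known. The text names every member, list genes with clock roles, relatives by annotated family, and genes just outside the limits. The relatives were picked once the members were known. Tests used log2(FPKM + 1), with a pseudocount of 1, in limma 3.58.1 (R 4.3.3, trended empirical Bayes) on 19986 genes that reached an FPKM of 1 in 2 or more libraries, with Benjamini-Hochberg adjustment over all of them and a threshold of 0.05. Fold changes on this scale are understated for low genes. The tissue difference was the mean of 6 shoot apex groups minus that of 6 leaf groups, the replicate difference a term within each tissue, and the wave a cosine and a sine of 24 h per tissue. The fits were tested on simulated data. Promoters and coordinates came from RefSeq's TAIR10.1, whose annotation matched 32834 genes by ID, since the table holds no coordinates. Other steps ran in Python 3.11.15 with scipy 1.17.1, numpy 2.4.6, matplotlib 3.10.9 and pandas 2.3.3. Replicate differences correlated at 0.16 to 0.44 between times within the shoot apex and at 0.55 to 0.76 within leaves, but at 0.05 to 0.32 between tissues at the same time, with 2 of 6 at or under 0.1, so numbers were not taken to pair the tissues. Alternatives were another pseudocount, no filter, a stricter filter, rescaled libraries, a replicate block, other limits of the rule, and fits without each library or either replicate number.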

Additional observations from a re-analysis of the deposited data

How the results depend on the processing

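The number of genes that met the rule moved with its limits. It was 14 with a limit of 5 FPKM, 3 with 20 FPKM, 19 with a range of 1.4-fold and 1 with 2-fold. It was 6 on rescaled libraries, of which 3 were shared, and 9 on means of log2(FPKM + 1), with all 7 kept. With a library or a replicate number left out it ranged from 5 to 19. Counts chosen after seeing the data were 4 for fitted waves at least 10 h apart and 1 for a highest time at least 1.1 times the next in both tissues. Genes meeting the rule in each replicate alone fell to 0 on rescaled libraries.

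For the tissue difference, 6 of 7 genes passed, and 2 to 7 did when a library or a replicate number was left out. The lowest count, 2, was without replicate 1, where 1 library per group is left and the differences between times count as error. Rescaling reversed SIP2 (-0.38), AT2G25450 (-0.44) and PRP2 (-0.38). The call of AT2G25450 was lost without any of 11 of 24 single libraries (adjusted p 0.00121 to 0.0724 over all 24). These were shoot apex replicate 1 at ZT98 and ZT102 and replicate 2 at ZT94, ZT106 and ZT110, and leaf replicate 1 at ZT106 and replicate 2 at ZT90, ZT94, ZT98, ZT102 and ZT110. PRP2 passed without any of 9, which were shoot apex replicate 1 at ZT90 and ZT106, shoot apex replicate 2 at ZT94 and leaf replicate 2 at each of the 6 times (adjusted p 0.0118 to 0.115 over all 24). With the replicate number as a block, 7 of 7 passed for the tissue difference, with PRP2 at an adjusted p of 0.0101. Calls on the time courses, and their alternatives, are not reported, since the rule chose the genes on them.

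For the shoot apex replicate difference, 2 genes passed, against 1 with a pseudocount of 0.1, 0 with no filter and 1 on rescaled libraries, and 0 to 2 without single libraries. AT2G40205 lost its call without either library of ZT90, ZT102, ZT106 or ZT110 (adjusted p up to 0.1), and GRP5 in 14 of 24 cases, either library of shoot apex ZT90, ZT98, ZT102, ZT106 or ZT110 or of leaf ZT94 or ZT102 (up to 0.16). For the leaf replicate difference 1 gene passed, against 2 with a mean FPKM of at least 5 and 1 to 2 without single libraries. PRP2 kept its call in all 24 cases, and GASA1 passed without either shoot apex library of ZT94 or ZT106 (adjusted p 0.0276 to 0.185 over all 24). The causes were not tested. With 2 libraries at each time, a highest time set by a margin smaller than the gap between replicates is limited by that gap.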

Other observations

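Reads behind the values, as estimated from FPKM, length and depth, came to 28.8 to 295 per shoot apex library for GASA1 and 35.8 to 170.5 per leaf library for AT2G40205, the lowest of the 7 in each tissue. AT2G25450 had 2055 to 5529 per shoot apex library and 1938 to 3779 per leaf library. Between replicates 1 and 2, over the 6 times, the course correlated at r = 0.85 (shoot apex) and 0.99 (leaves) for SERAT2;1 and at 0.86 (shoot apex) and 0.54 (leaves) for SIP2. For the other genes r in the shoot apex was 0.50 for PRP2, 0.06 for AT2G25450, 0.24 for GASA1, -0.19 for AT2G40205 and -0.03 for GRP5. Their r in leaves was 0.89 for PRP2, 0.72 for AT2G25450, -0.06 for GASA1, 0.43 for AT2G40205 and 0.09 for GRP5. The medians over all 557 genes past the limits were 0.87 in the shoot apex and 0.94 in leaves. These values are a description over 6 time points each and carry no test.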
